A study of Homo sapiens with 12 samples.

Results

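The 10 genes described here encode ligands that activate or restrain T cells or macrophages. They are CD80, CD86, CD274, CD276 and ICOSLG of the B7 family, CD70 and TNFSF9 of the tumour necrosis factor (TNF) family, and VSIR, LGALS9 and CD47. Each was found by the Ensembl identifier that belongs to its symbol, which gave 10 of the 60668 genes counted. Of these, 9 passed the filter on low counts and were tested, and CD274 did not pass.

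The cells were MOLM-13, an established human line of acute myeloid leukaemia in which MLL is fused to AF9 and FLT3 has an internal tandem duplication. Cultures were grown for 8 days with DMSO (the solvent), with gilteritinib, a FLT3 kinase inhibitor, with MI-3454, an inhibitor of the contact between menin and MLL1, or with both agents, and each of the 4 groups had 3 libraries of RNA depleted of ribosomal RNA. The design compares each treatment with DMSO and asks how far the changed genes overlap; doses are not given in the labels. In each group with MI-3454, the treatment label of replicates 2 and 3 ends in another number (MI3455, MI3456), whereas all titles name 1 compound, and the titles were followed. All groups are 1 cell line seeded in triplicate, so p-values measure the spread between these cultures, which may be technical.

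A T cell that meets antigen also reads ligands on the cell in front of it. CD80 and CD86 pass an activating signal through CD28 and a restraining signal through CTLA4, whereas CD274, better known as PD-L1, restrains through PD-1. ICOSLG, CD70 and TNFSF9 act through ICOS, CD27 and 4-1BB as costimulators, VSIR and LGALS9 encode the checkpoint proteins VISTA and galectin-9, and CD47 tells macrophages not to engulf the cell by binding SIRPA. Leukaemic blasts of the myeloid lineage can carry many of these proteins, and several of them are drug targets.

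Libraries held 6472940 to 12051457 gene counts, of which the 10 genes held 0.0383% to 0.0561%. All 8 listed markers of myeloid leukaemia cells (CD33, MPO, LYZ and others) had at least 1 CPM in each group, where CPM is the count scaled to library size with TMM factors over the 12 libraries, and the T cell genes CD3G and CD2 had no count in any library. TRAC, a T cell receptor segment among the listed T cell markers, was 16.2 CPM with DMSO, 36.9 with gilteritinib, 4.26 with MI-3454 and 0.805 CPM with the combination. CD3D was 1.77, 2.61, 1.89 and 0.537 CPM in the same order, and lower with the combination than with DMSO (edgeR adjusted p = 0.00263). CD3E and CD8A were at most 0.153 CPM in any group mean. Of the listed natural killer cell markers, NCAM1 was 17.6 to 31.9 CPM and the others at most 0.217 CPM in any group mean. The summed level of the 8 myeloid leukaemia markers was 2171 to 2305 CPM with DMSO and 15002 to 16367 CPM with the combination. Most of that gap was LYZ, the lysozyme gene, at 414 and 13481.5 CPM. FLT3, on the same list, fell from 696 to 190.5 CPM (edgeR adjusted p = 6.42e-10), and SPI1 did not pass (adjusted p = 0.466). RN7SL1, an abundant small cytoplasmic RNA, took its highest share of each group in DMSO replicate 2, gilteritinib replicate 2, MI-3454 replicate 3 and combination replicate 1. CD86 and CD47 were lowest, and CD70, VSIR and LGALS9 highest, in that library of all 4 groups, and results without these 4 libraries are given where the call differs. Reads outside annotated features made up 15.6% to 36.5% of a library's uniquely placed reads, with the 3 combination libraries the highest; the part of this in the results was not tested. In bulk RNA, fewer cells that express a gene and less RNA per cell cannot be told apart.

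**Figure D1:**
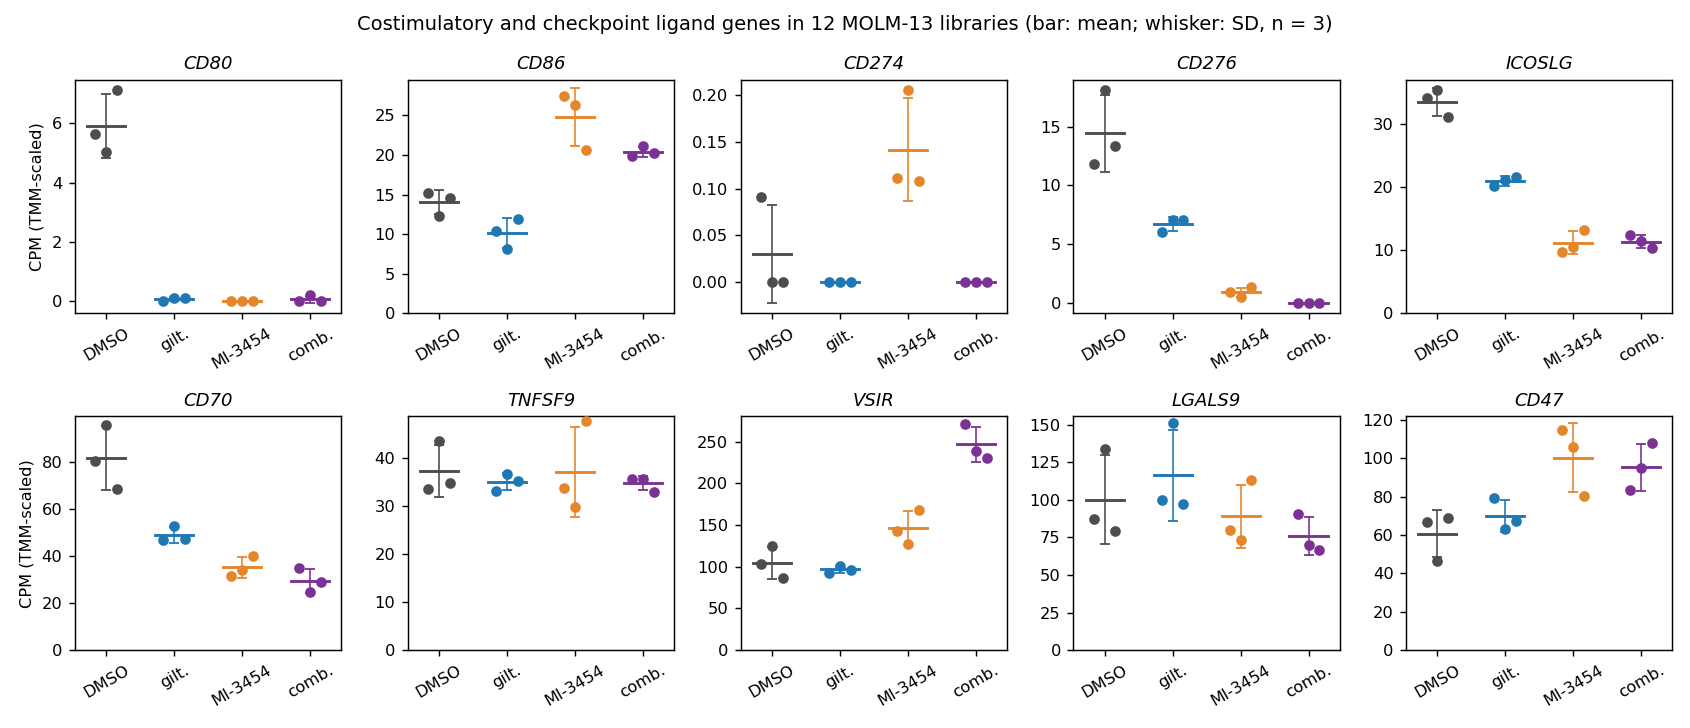
TMM-scaled CPM of the 10 ligand genes in each of the 12 libraries (points), with the group mean (bar) and SD (whisker, n = 3), by treatment on the horizontal axis and on a separate linear vertical axis for each gene. CD80 is near 0 in every treated library, CD276 is at 0 in the 3 combination libraries, and VSIR stands highest with the combination, at 231 to 271 CPM.

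Levels of different genes are set side by side only per kilobase of the union of their annotated exons. That union can exceed the length of the transcripts expressed, which were not determined, so the order of genes is approximate. On this scale CD70 was the highest of the 10 with DMSO at 53.3 ± 8.94 CPM per kb (SD, n = 3). TNFSF9 (22.4 ± 3.29), VSIR (20.4 ± 3.73) and LGALS9 (17.5 ± 5.17 CPM per kb) followed, and their ranges of mean ± SD overlapped. CD47 stood at 7.40 ± 1.49, CD86 at 4.09 ± 0.447 and ICOSLG at 3.58 ± 0.236 CPM per kb, and the ranges of CD86 and ICOSLG overlapped. CD276 (2.60 ± 0.591) and CD80 (1.85 ± 0.337 CPM per kb) also overlapped, and CD274 came last at 0.00737 ± 0.0128 CPM per kb.

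With the combination the order had another head. VSIR led at 48.2 ± 4.14 CPM per kb (SD, n = 3), more than its SD above TNFSF9 at 20.9 ± 0.910 and CD70 at 19.3 ± 3.33 CPM per kb, which overlapped. LGALS9 (13.3 ± 2.25) and CD47 (11.6 ± 1.49 CPM per kb) overlapped as well, ahead of CD86 at 5.94 ± 0.186 and ICOSLG at 1.22 ± 0.111 CPM per kb. With MI-3454 alone VSIR (28.6 ± 4.03), CD70 (23.0 ± 2.82) and TNFSF9 (22.2 ± 5.64 CPM per kb) headed the order, with overlapping ranges. With gilteritinib alone CD70 still led, at 32.0 ± 2.28 CPM per kb.

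**Figure D2:**
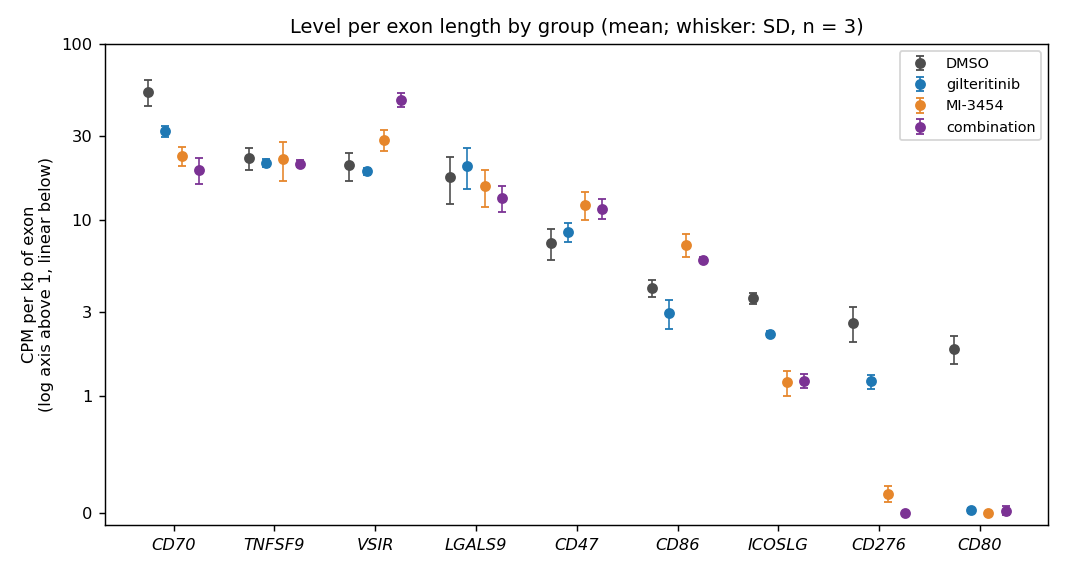
CPM per kb of the union of annotated exons for 9 ligand genes (CD274 is left out), as group mean and SD (n = 3). Genes are ordered by their DMSO level, on an axis that is logarithmic above 1 and linear below. CD70 heads the DMSO group at 53.3 CPM per kb and VSIR the combination group at 48.2, while TNFSF9 stays between 20.9 and 22.4 in all 4 groups.

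The CD28 ligands CD80 and CD86 share receptors but went different ways in the groups with MI-3454, where CD80 fell and CD86 rose. CD80 (ENSG00000121594.12, chromosome 3, 119524293 to 119559602) stood at 5.63, 5.02 and 7.11 CPM in the DMSO libraries, 181 counts in all. Gilteritinib left 0, 1 and 1 counts, MI-3454 left no count in any of its 3 libraries, and the combination left 0, 2 and 0 counts. Every treated library was thus far below every DMSO library. CD80 was at least 54.6-fold lower with MI-3454 than with DMSO, taking a floor of 3 counts over the group. The ratio of DMSO to gilteritinib was 86.0 (exact 95% interval 23.5 to 716) and that of DMSO to the combination 82.3 (22.5 to 685), intervals that cover counting error only. All 3 falls passed edgeR's quasi-likelihood test, with adjusted p of 9.38e-06 for MI-3454, 3.67e-06 for gilteritinib and 4.67e-08 for the combination. Among the treated groups no fold is given, since all held at most 2 counts. TIMMDC1, a gene on the other strand, runs into the end of CD80, and its levels were 50.6 ± 6.32 CPM with DMSO and 44.3 ± 3.40 CPM with MI-3454 (edgeR adjusted p = 0.37). TIMMDC1 was 38.3 ± 1.61 CPM with the combination, a fall of 0.40 ± 0.12 on the log2 scale (adjusted p = 0.00887). The neighbour ADPRH, 19.7 kb away, went from 19.5 CPM with DMSO to 13.3 CPM with MI-3454 (edgeR adjusted p = 0.0382) and 8.63 CPM with the combination (adjusted p = 2e-05), and POGLUT1, on the other side, did not pass in any comparison with DMSO.

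Among 8 listed markers of dendritic cells, professional bearers of CD80, only BATF3 had enough counts to be tested. Of the 8 genes 6 had a count with DMSO, and 4, 4 and 2 had one with gilteritinib, MI-3454 and the combination. Their summed level was 5.31 to 5.50 CPM in the DMSO libraries and at most 0.971 CPM in any treated library. Most of this was BATF3, a transcription factor of that lineage, at 4.398 CPM with DMSO and 0.298, 0.145 and 0.0289 CPM with gilteritinib, MI-3454 and the combination, and it fell in all 3 comparisons with DMSO (edgeR adjusted p of 2.11e-05, 6.35e-06 and 5.06e-08). The other 7 were at most 0.373 CPM in any group mean, and CCR7 was 0.373 CPM with DMSO and 0.368 CPM with gilteritinib. CD1A, CD1C and FCER1A were 0.364, 0.0921 and 0.0618 CPM with DMSO and had no count in any treated group. CLEC9A and XCR1 had no count with DMSO. The part of these markers in the CD80 result was not tested.

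CD86 (ENSG00000114013.16, chromosome 3, 122055366 to 122121139), the other CD28 and CTLA4 ligand, was 15.3, 12.3 and 14.6 CPM with DMSO. It reached 27.5, 26.3 and 20.6 CPM with MI-3454 and 19.9, 21.1 and 20.2 CPM with the combination, whereas gilteritinib gave 10.3, 8.13 and 11.98 CPM. Both groups with MI-3454 lay above the DMSO libraries without overlap, and the gilteritinib libraries lay below them. CD86 rose by 0.82 ± 0.16 (SE) on the log2 scale with MI-3454, or 1.77-fold (edgeR adjusted p = 0.00347), and by 0.54 ± 0.14 with the combination, or 1.45-fold (adjusted p = 0.00331). The gilteritinib value of -0.46 ± 0.17 did not pass (adjusted p = 0.0837). With the replicate number as a block, a pairing assumed from the data and given by no label, it was -0.48 (edgeR adjusted p = 0.00481). It also passed without DMSO replicate 2 (-0.55, adjusted p = 0.026) and without the 4 libraries highest in RN7SL1 (-0.42, adjusted p = 0.0424). Between the single agents CD86 was 2.42-fold higher with MI-3454 (adjusted p = 0.000264), and adding MI-3454 to gilteritinib raised it by 1.01 ± 0.14 (adjusted p = 2.51e-05). Adding gilteritinib to MI-3454 gave -0.27 ± 0.13, which did not pass (adjusted p = 0.144), but did without MI-3454 replicate 3 (-0.38, adjusted p = 0.0133) and without the 4 libraries highest in RN7SL1 (-0.36, adjusted p = 0.0225).

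CD14, a monocyte gene, was 0.286 CPM with DMSO, 0.0278 CPM with gilteritinib, 12.7 CPM with MI-3454 and 14.4 CPM with the combination, so it was high where CD86 was high. Over the 6 listed markers of monocytes and macrophages the summed level was 2.45 to 4.17 CPM with DMSO, 1.92 to 3.30 CPM with gilteritinib, 15.04 to 22.03 CPM with MI-3454 and 16.7 to 21.5 CPM with the combination. CD163 and C1QA, which mark macrophages, had no count in any group. The part of these markers in the CD86 result was not tested. The neighbours ILDR1 and CASR were at most 0.787 and 0.0733 CPM in any group mean and were not tested.

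The upstream sequences of CD80, CD86 and CD274 are shown because the first pair share receptors but diverged in the groups with MI-3454, and because CD274 was nearly silent although its window holds the most matches to immune motifs among the 3 genes. Each is the stretch of 200 bases that ends 51 bases before a RefSeq transcription start (GRCh38.p14), written 5′ to 3′ on the gene's strand, with matches to the motifs searched in capitals. CD80 lies on the minus strand at chr3:119559665-119559864, CD86 has 2 starts on the plus strand with windows chr3:122055112-122055311 and chr3:122077534-122077733, and CD274 lies on the plus strand at chr9:5450292-5450491.
CD80: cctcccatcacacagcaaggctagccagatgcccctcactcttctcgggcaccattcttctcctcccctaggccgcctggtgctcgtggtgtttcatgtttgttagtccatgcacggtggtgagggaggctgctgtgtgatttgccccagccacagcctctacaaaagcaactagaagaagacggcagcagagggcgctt
CD86 upstream start: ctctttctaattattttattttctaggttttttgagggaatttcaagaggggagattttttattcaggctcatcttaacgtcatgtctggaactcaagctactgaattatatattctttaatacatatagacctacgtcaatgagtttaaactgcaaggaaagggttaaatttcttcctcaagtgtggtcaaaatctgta
CD86 downstream start: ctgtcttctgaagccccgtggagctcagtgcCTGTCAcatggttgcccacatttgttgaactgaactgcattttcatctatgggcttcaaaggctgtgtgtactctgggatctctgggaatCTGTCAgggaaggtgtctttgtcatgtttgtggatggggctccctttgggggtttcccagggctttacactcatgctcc
CD274: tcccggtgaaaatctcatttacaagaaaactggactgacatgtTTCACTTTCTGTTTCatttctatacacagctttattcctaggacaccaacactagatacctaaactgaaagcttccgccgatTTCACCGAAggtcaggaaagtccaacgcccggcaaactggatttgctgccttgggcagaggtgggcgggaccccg

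Windows of 300 bases, from 250 before to 50 after a start, were available for 9 of the 10 genes, 11 windows in all. They were searched on both strands for 6 motifs, and the shares of all 35116 windows of that length that hold each were computed. The STAT motif TTCNNNGAA was in 7.66% of all windows, the interferon response core GAAANNGAA in 8.11%, the ETS motif AGGAAGT in 8.24%, the AP-1 motif TGANTCA in 7.71%, the E-box CACGTG in 7.26% and the MEIS motif TGACAG in 15.8%. In CD274 the capitals mark 1 STAT match, at -125, and 2 overlapping matches to the interferon core, at -207 and -201. In the downstream window of CD86 they mark MEIS matches at -219 and -129. LGALS9 held interferon core, ETS and MEIS matches and TNFSF9 an interferon core match, while the windows of CD80, CD276, ICOSLG, VSIR and CD47 and the upstream window of CD86 held none of the 6. A match is a run of letters, not a site shown to be bound.

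CD274 (ENSG00000120217.14, chromosome 9, 5450503 to 5470566), which encodes PD-L1, had 5 counts in all. They were 1, 0 and 0 in the DMSO libraries, 1, 2 and 1 in the MI-3454 libraries, and 0 in the 6 libraries with gilteritinib. The MI-3454 libraries were the highest, but the ratio of MI-3454 to DMSO was 4.42 with an exact 95% interval of 0.437 to 218, so no difference was detectable at this depth. Its neighbour PDCD1LG2, the other PD-1 ligand, 40.0 kb away, was at most 0.103 CPM in any group mean and was not tested either. PLGRKT, 12.6 kb away on the other side, did not pass in any comparison with DMSO.

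CD276 (ENSG00000103855.18, chromosome 15, 73683966 to 73714518) encodes B7-H3, a B7 protein found on many tumours. Its levels stepped down across the groups: 11.8, 18.1 and 13.4 CPM with DMSO, then 6.01, 7.04 and 7.04 CPM with gilteritinib, 0.892, 0.514 and 1.30 CPM with MI-3454, and no count in any combination library. No 2 groups overlapped. CD276 fell by 1.11 ± 0.19 on the log2 scale with gilteritinib, or 2.16-fold (edgeR adjusted p = 0.00167), and by 3.99 ± 0.31 with MI-3454, or 15.9-fold (adjusted p = 2.31e-06). Under the combination it was at least 135-fold lower than with DMSO (adjusted p = 1.37e-09), at least 61.9-fold lower than with gilteritinib (adjusted p = 8e-08) and at least 8.38-fold lower than with MI-3454 (adjusted p = 0.0034). The changes under the single agents add to -5.10, which is 34.4-fold, and the interaction term passed the test (edgeR adjusted p = 0.0136). The neighbour NPTN, 49.8 kb away, went the other way with the combination, from 45.0 to 57.7 CPM (edgeR adjusted p = 0.00962), and INSYN1, 20.9 kb away, was nearly silent, at most 0.0472 CPM in any group mean.

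ICOSLG (ENSG00000160223.17, chromosome 21, 44217014 to 44240966), the ligand of ICOS on T cells, was 34.04, 35.3 and 31.0 CPM with DMSO and 20.1, 21.1 and 21.7 CPM with gilteritinib. MI-3454 brought it to 9.70, 10.6 and 13.2 CPM and the combination to 12.4, 11.4 and 10.3 CPM. The groups with MI-3454 overlapped each other and lay below gilteritinib, which lay below DMSO. ICOSLG fell by 0.68 ± 0.11 on the log2 scale with gilteritinib (edgeR adjusted p = 0.00178), by 1.58 ± 0.15 with MI-3454 (adjusted p = 1.72e-05) and by 1.55 ± 0.13 with the combination (adjusted p = 5.1e-08). Gilteritinib on top of MI-3454 gave 0.04 ± 0.16, with a 95% interval of -0.32 to 0.40 (adjusted p = 0.864). The single changes add to -2.26, and the interaction of 0.71 ± 0.18 passed the test (adjusted p = 0.0155).

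A near-identical copy of ICOSLG on the same chromosome (ENSG00000277117.5, 5022493 to 5040666) took 580 counts beside 2284, so the split of reads between them is uncertain. The copy was 9.72 ± 0.580 CPM with DMSO, 4.81 ± 0.555 with gilteritinib, 3.11 ± 0.449 with MI-3454 and 1.82 ± 0.475 CPM with the combination. Unlike ICOSLG itself, the copy's combination libraries all lay below its MI-3454 libraries, though that difference of -0.72 ± 0.29 did not pass (edgeR adjusted p = 0.0765). The copy's interaction of 0.30 ± 0.30 did not pass either (adjusted p = 0.54). With the counts of both entries summed, the ICOSLG value was -1.70 ± 0.13 under the combination (adjusted p = 1.12e-08) and the interaction was 0.65 ± 0.17 (edgeR adjusted p = 0.0175). The neighbour GATD3, 6.90 kb away, was 9.99 CPM with DMSO and 5.70 CPM with the combination (adjusted p = 0.00483), and DNMT3L was at most 0.0944 CPM in any group mean.

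CD70 (ENSG00000125726.11, chromosome 19, 6583183 to 6604103), the ligand of CD27, was 80.5, 96.0 and 68.7 CPM with DMSO, 46.7, 53.0 and 47.3 CPM with gilteritinib, 31.4, 34.3 and 39.9 CPM with MI-3454, and 34.9, 24.8 and 28.9 CPM with the combination. The DMSO libraries were the highest and the gilteritinib libraries came next, both apart from the rest, while the 2 groups with MI-3454 overlapped. CD70 fell by 0.74 ± 0.13 on the log2 scale with gilteritinib, or 1.67-fold (edgeR adjusted p = 0.00199). It fell by 1.21 ± 0.15 with MI-3454, or 2.32-fold (adjusted p = 0.000106), and by 1.46 ± 0.15 with the combination, or 2.75-fold (adjusted p = 2.52e-07). The combination differed from gilteritinib by -0.71 ± 0.12 (adjusted p = 0.00013), and its difference from MI-3454 of -0.24 ± 0.14 did not pass (adjusted p = 0.221). Between the single agents CD70 was 1.40-fold lower with MI-3454 (adjusted p = 0.0165). That call was lost without gilteritinib replicate 2 (adjusted p = 0.0615), MI-3454 replicate 1 (0.0767) or MI-3454 replicate 2 (0.0639).

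TNFSF9 (ENSG00000125657.5, chromosome 19, 6530999 to 6535928), the 4-1BB ligand, did not pass the test in any comparison. It was 33.6, 43.6 and 34.7 CPM with DMSO, 33.1, 36.6 and 35.3 CPM with gilteritinib, 33.7, 29.8 and 47.6 CPM with MI-3454, and 35.6, 35.7 and 33.0 CPM with the combination. All 4 groups overlapped. The 95% interval of its log2 change against DMSO was -0.37 to 0.18 with gilteritinib, -0.40 to 0.38 with MI-3454 and -0.36 to 0.17 with the combination.

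The genes of 3 TNF ligands stand in a row on chromosome 19, and each followed its own course. TNFSF9 lies 47.3 kb from CD70, and on the other side TNFSF14, which encodes the TNFRSF14 ligand LIGHT, lies 57.2 kb from CD70. TNFSF14 was 11.9, 16.01 and 13.04 CPM with DMSO, 11.1, 17.1 and 15.0 with gilteritinib, 21.95, 25.6 and 29.7 with MI-3454 and 55.7, 49.3 and 54.9 CPM with the combination. It rose by 0.92 ± 0.17 on the log2 scale with MI-3454 (edgeR adjusted p = 0.00227) and by 1.97 ± 0.13 with the combination (adjusted p = 2.51e-09). TUBB4A, on the far side of TNFSF9, was 1.34 CPM with DMSO, 0.511 with gilteritinib, 0.532 with MI-3454 and 0 CPM with the combination. It was not tested. Among the 3 TNF ligand genes CD70 fell, TNFSF14 rose with MI-3454 and the combination, and TNFSF9 had no call.

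VSIR (ENSG00000107738.20, chromosome 10, 71747559 to 71773498), the gene of VISTA, a restraint on T cells that myeloid cells carry, was the member that rose most under the combination. It was 103, 124 and 86.3 CPM with DMSO, 92.9, 101 and 96.3 CPM with gilteritinib, 143, 128 and 169 CPM with MI-3454 and 271, 239 and 231 CPM with the combination. The combination libraries stood above all others, the MI-3454 libraries lay above the DMSO libraries, and gilteritinib and DMSO overlapped. VSIR rose by 1.24 ± 0.13 on the log2 scale with the combination, or 2.36-fold (edgeR adjusted p = 4.59e-07). It was 1.70-fold above MI-3454 alone (adjusted p = 0.000692) and 2.57-fold above gilteritinib alone (adjusted p = 1.29e-08). Gilteritinib alone gave -0.11 ± 0.13 (adjusted p = 0.585), the single changes add to 0.37, and the interaction of 0.87 ± 0.18 passed the test (adjusted p = 0.00486).

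The rise of VSIR with MI-3454 alone, 0.48 ± 0.15 on the log2 scale, passed narrowly (edgeR adjusted p = 0.0448). It was lost without DMSO replicate 1 (adjusted p = 0.15), DMSO replicate 3 (0.176), MI-3454 replicate 1 (0.101) or MI-3454 replicate 3 (0.0864) and with RLE scaling (0.0512), and kept without the 4 libraries highest in RN7SL1 (0.51, adjusted p = 0.00114). VSIR lies inside CDH23, a cadherin gene on the other strand, and strand use in the counting is not given, so reads of the pair may not be told apart. CDH23 was 0.845 ± 0.111 CPM with DMSO and 6.09 ± 0.623 CPM with the combination, small beside VSIR. The neighbour PSAP, 42.8 kb away, which encodes a lysosomal protein, went from 500.1 to 866 CPM (edgeR adjusted p = 1.63e-05), and C10orf105, on the other side, was at most 0.297 CPM in any group mean.

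LGALS9 (ENSG00000168961.17, chromosome 17, 27629798 to 27649560), which encodes a galectin that binds TIM-3, varied widely between replicates. It was 87.5, 134 and 79.1 CPM with DMSO, 99.99, 151 and 97.5 CPM with gilteritinib, 80.1, 73.4 and 113 CPM with MI-3454, and 90.6, 70.2 and 66.8 CPM with the combination. In each group the library highest in RN7SL1 stood above the other 2. LGALS9 was 1.51-fold lower with the combination than with gilteritinib (log2 change -0.60 ± 0.15, edgeR adjusted p = 0.00416). Against DMSO the combination gave -0.40 ± 0.17, which did not pass (adjusted p = 0.0514). That value passed in 8 of 15 alternatives, among them the fit without the 4 libraries highest in RN7SL1 (-0.29, adjusted p = 0.00898). With gilteritinib alone it was 0.21 ± 0.20 (adjusted p = 0.525), and 0.22 with the replicate block (edgeR adjusted p = 0.0174). The gilteritinib value was 0.47 without DMSO replicate 2 (adjusted p = 0.0411) and 0.25 without the 4 libraries highest in RN7SL1 (adjusted p = 0.0229). MI-3454 against gilteritinib gave -0.39 ± 0.19 (adjusted p = 0.191), which passed without MI-3454 replicate 3 (-0.61, adjusted p = 0.00744) and without the 4 libraries highest in RN7SL1 (-0.38, adjusted p = 0.000127). The near-identical copies LGALS9B and LGALS9C held 5 and 9 counts in all. Its neighbour KSR1, 3.36 kb away, fell in all 3 treated groups, from 122 CPM with DMSO to 32.0 CPM with gilteritinib (edgeR adjusted p = 1.48e-07), and NOS2, on the other side, was at most 0.0366 CPM in any group mean.

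CD47 (ENSG00000196776.16, chromosome 3, 108043094 to 108091862), the signal against phagocytosis, was 67.0, 46.7 and 68.8 CPM with DMSO, 79.5, 63.0 and 67.4 CPM with gilteritinib, 115, 106 and 80.5 CPM with MI-3454 and 83.3, 95.2 and 108 CPM with the combination. Both groups with MI-3454 lay above both groups without it. CD47 rose by 0.72 ± 0.17 on the log2 scale with MI-3454, or 1.65-fold (edgeR adjusted p = 0.0109), and by 0.65 ± 0.14 with the combination, or 1.57-fold (adjusted p = 0.000889). The rise with MI-3454 was not called without MI-3454 replicate 1 (0.62, adjusted p = 0.0543). The combination exceeded gilteritinib by 0.45 ± 0.10 (adjusted p = 0.00212), and its difference from MI-3454, -0.07 ± 0.14, had a 95% interval of -0.37 to 0.24 (adjusted p = 0.745). Gilteritinib alone gave 0.20 ± 0.15 (adjusted p = 0.382), and 0.21 with the replicate block (edgeR adjusted p = 0.0378). The neighbour IFT57, 68.95 kb away, rose with MI-3454 (0.62 ± 0.15, edgeR adjusted p = 0.0127) but did not pass with the combination (adjusted p = 0.436), and BBX fell with the combination by 0.45 ± 0.13 (adjusted p = 0.0064).

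SIRPA, the macrophage receptor of CD47, was itself at 203, 217 and 192 CPM with DMSO, 260, 258 and 255 with gilteritinib, 316, 306 and 351 with MI-3454 and 398, 371 and 347 CPM with the combination. All treated libraries lay above the DMSO libraries. SIRPA rose by 0.33 ± 0.10 on the log2 scale with gilteritinib (edgeR adjusted p = 0.0394), 0.67 ± 0.12 with MI-3454 (adjusted p = 0.00164) and 0.87 ± 0.11 with the combination (adjusted p = 3.22e-06). QPCTL, the enzyme that modifies CD47 so that SIRPA can bind it, was 48.0 ± 1.62 CPM with DMSO and 26.1 ± 4.52 CPM with the combination, a fall of 0.87 ± 0.13 on the log2 scale (adjusted p = 2.89e-05).

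**Figure D3:**
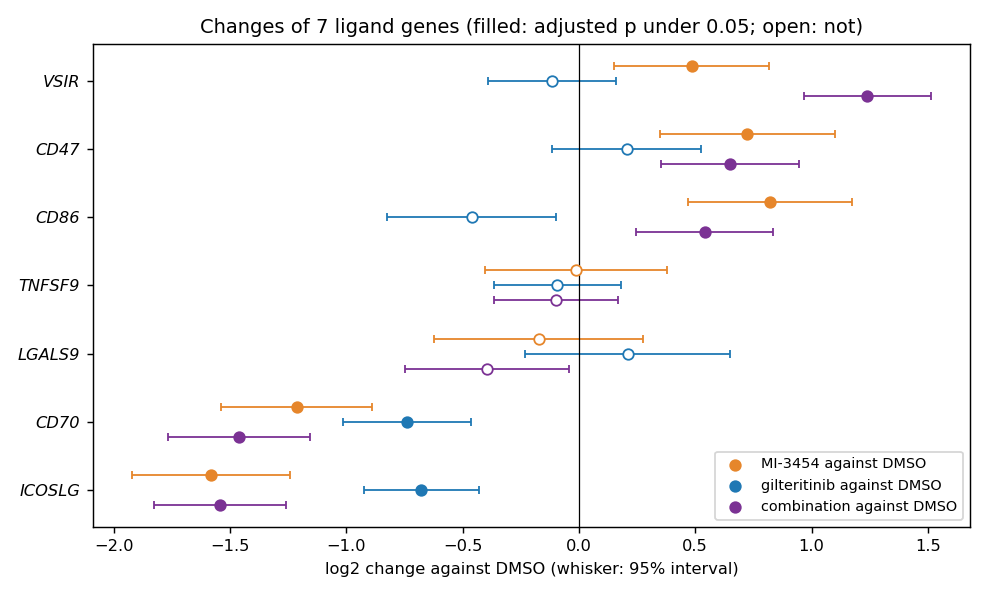
Log2 change against DMSO of 7 ligand genes under gilteritinib, MI-3454 and the combination (points; whiskers are 95% intervals; filled points have an edgeR adjusted p under 0.05). VSIR, CD47 and CD86 lie to the right with MI-3454 and the combination, CD70 and ICOSLG to the left with all 3 treatments, and the 3 intervals of TNFSF9 span 0. CD80 and CD276 are left out because a treated group had no counts, and CD274 was not tested.

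Counted over the 9 tested genes, MI-3454 against DMSO changed 7, with CD86, VSIR and CD47 higher and CD80, CD276, ICOSLG and CD70 lower. Of all 13972 genes tested, 19% changed in that comparison, so the share among the ligands, 77.8%, was above the background. The members were chosen as a family, but with earlier results of these data known. An excess over the background, here or in the comparisons below, may come from that choice, and no test of a share was made. The median log2 change was -0.17 over the 9 genes and 0.00 over all genes. The same 3 genes rose and the same 4 fell under the combination, again 7 of 9, but there 57.5% of all genes changed, so the share stands closer to the background. The median there was -0.40, against 0.00 over all genes.

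Gilteritinib alone lowered 4 of the 9, CD80, CD276, ICOSLG and CD70, and raised none. The background was 15.1% of all genes, against 44.4% of the ligands, and the median log2 change was -0.46 against 0.00 over all genes. With the replicate block, 7 of 9 changed, with CD86 also lower and LGALS9 and CD47 higher, at a background of 35.3%. These added calls rest on a pairing assumed from the data and given by no label. The comparisons with DMSO share the DMSO libraries, so their shared lower genes are not independent evidence.

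MI-3454 against gilteritinib changed 6 of 9 (background 17.4%), with CD86, VSIR and CD47 higher and CD276, ICOSLG and CD70 lower with MI-3454. The call on CD47, 0.51 ± 0.14 on the log2 scale (edgeR adjusted p = 0.024), was lost without gilteritinib replicate 2 (adjusted p = 0.0777), gilteritinib replicate 3 (0.0953), MI-3454 replicate 1 (0.11) or MI-3454 replicate 2 (0.0823). Adding MI-3454 to gilteritinib changed 7 of 9, with CD86, VSIR and CD47 higher and CD276, ICOSLG, CD70 and LGALS9 lower, where the background was 60.4%. Adding gilteritinib to MI-3454 changed 2 of 9, VSIR higher and CD276 lower, a share of 22.2% against a background of 29.2%. That share is near the background.

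The interaction term, which measures how far the combination departs from the sum of the single log2 changes, was called in 4 of 9 genes against a background of 15.3%. VSIR was above the sum, ICOSLG was less low than the sum and CD276 was below it, with a fitted value that rests on the combination's 0 counts. The call on CD80 says nothing of a differing effect: the single agents left 2 and 0 of 181 counts, so no combination value could reach the sum of their changes. It was also lost without combination replicate 2 (edgeR adjusted p = 1). CD70, at 0.49 ± 0.20 on the log2 scale, did not pass (edgeR adjusted p = 0.11), nor did CD86, LGALS9, CD47 and TNFSF9 (adjusted p of 0.601, 0.353, 0.42 and 0.99). LGALS9 passed without the 4 libraries highest in RN7SL1 (-0.41, edgeR adjusted p = 0.0104).

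Other ligands and surface proteins of the same kind, 29 in a list that held PVR, NECTIN2, the butyrophilins and more TNF ligands, had 17 tested genes. MI-3454 raised 4 and lowered 3 of them, gilteritinib raised 1 and lowered 2, and the combination raised 9 and lowered 4. Beside the shares over all genes (19%, 15.1% and 57.5%), the 3 of 17 called with gilteritinib were near the background. TNFSF10, the gene of the death ligand TRAIL, was 4.46 CPM with DMSO and 7.59 CPM with MI-3454 (edgeR adjusted p = 0.0205), and BTN3A3, a butyrophilin gene, was 3.18 CPM with MI-3454 and 5.38 CPM with the combination (adjusted p = 0.031). ICAM1, the adhesion ligand that steadies contact with T cells, was 46.4, 47.4 and 39.9 CPM with DMSO, 7.76, 6.55 and 6.49 with gilteritinib, 10.8, 9.25 and 12.7 with MI-3454 and 14.3, 10.4 and 10.9 CPM with the combination. The DMSO libraries were well above all others. ICAM1 fell by 2.67 ± 0.14 on the log2 scale with gilteritinib (edgeR adjusted p = 1.48e-07), by 2.03 ± 0.15 with MI-3454 (adjusted p = 2.24e-06) and by 1.89 ± 0.14 with the combination (adjusted p = 1.05e-08).

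PVR, NECTIN2 and NCR3LG1 from that list fell under the combination, whereas CD48, a ligand of the killer cell receptor 2B4, and CD58, a ligand of CD2, did not pass (edgeR adjusted p of 0.106 and 0.908). PVR, a ligand of TIGIT and CD226, was 56.1 ± 4.33 CPM with DMSO, 33.4 ± 0.912 with gilteritinib, 39.4 ± 2.17 with MI-3454 and 22.9 ± 2.57 CPM with the combination (SD, n = 3), the last a fall of 1.28 ± 0.12 on the log2 scale (edgeR adjusted p = 1.72e-07). NECTIN2, which binds the same receptors, went from 207 ± 36.5 to 92.4 ± 13.3 CPM (adjusted p = 1.72e-06). NCR3LG1, the B7 family ligand of the killer cell receptor NKp30, went from 137 ± 15.3 to 59.3 ± 2.0996 CPM (adjusted p = 9.96e-08). TNFRSF14, which binds LIGHT and also BTLA, rose in all 3 comparisons with DMSO, from 10.0 ± 1.55 to 41.5 ± 1.12 CPM with the combination (adjusted p = 2.08e-09).

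**Figure D4:**
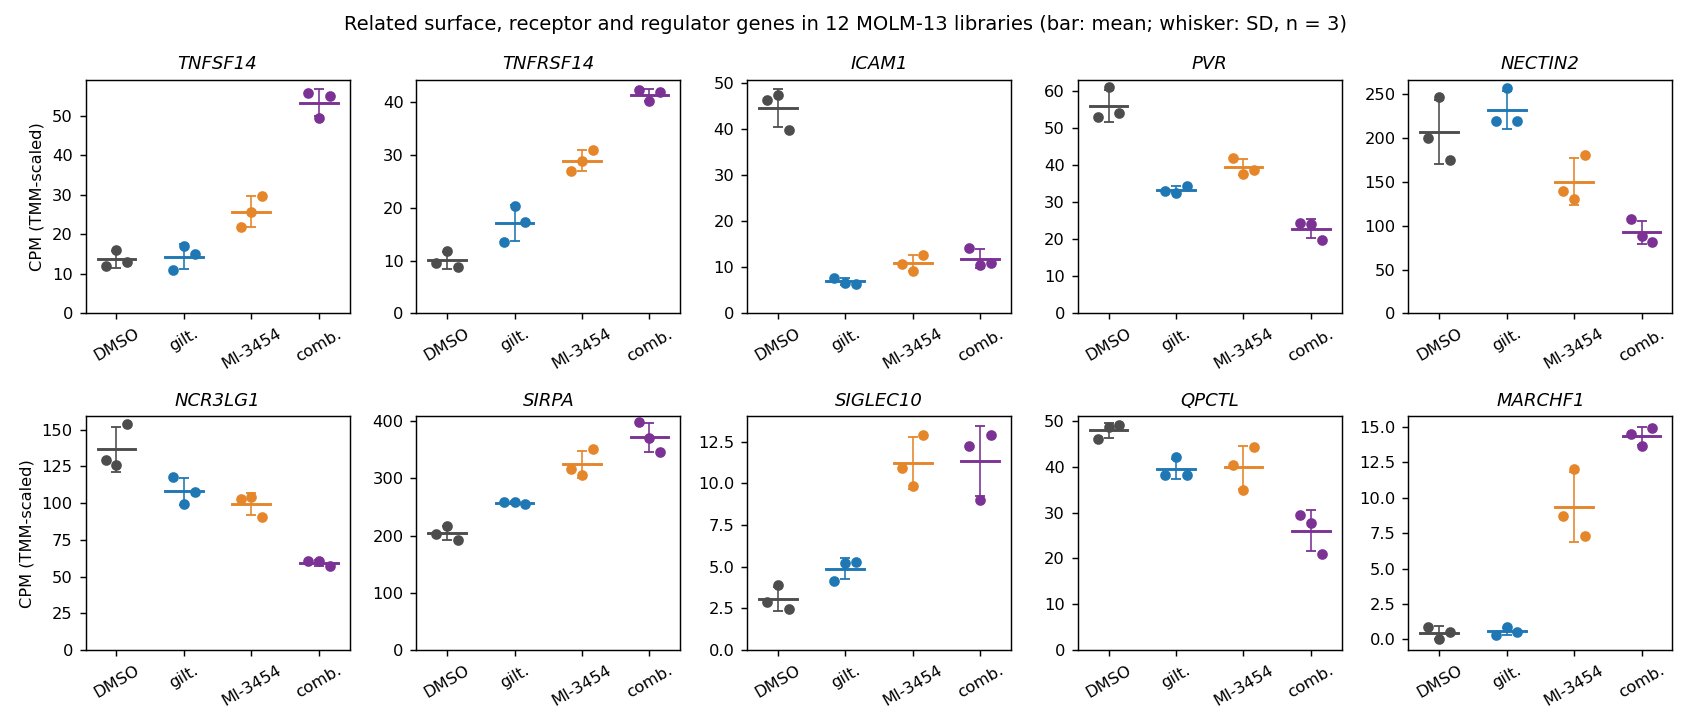
TMM-scaled CPM of 10 related genes in each library (points), with group mean (bar) and SD (whisker, n = 3), by treatment and on a separate linear axis for each gene. TNFSF14 and TNFRSF14 are highest with the combination, at 53.3 and 41.5 CPM on average, ICAM1 is low in all treated libraries, and PVR, NECTIN2 and NCR3LG1 are lowest with the combination.

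Of 21 receptors and binding partners, 5 were tested, the rest having too few counts. MI-3454 raised 3 of the 5, SIRPA, SIGLEC10 and HAVCR2, gilteritinib raised SIRPA, and the combination raised SIRPA and SIGLEC10 and lowered SIRPG. With so few tested genes, the 1 of 5 called with gilteritinib and the 3 of 5 called with the combination were near the backgrounds of 15.1% and 57.5%. The background for the 3 of 5 called with MI-3454 was 19%, and the list was chosen with earlier results of these data known. HAVCR2, the TIM-3 gene, was 1.39 ± 0.0635 CPM with DMSO and 3.04 ± 0.317 CPM with MI-3454 (edgeR adjusted p = 0.0145), and SIRPG went from 0.864 ± 0.190 CPM with DMSO to 0.192 ± 0.169 CPM with the combination (adjusted p = 0.0119). SIGLEC10, a restraining receptor of myeloid cells, was 3.09 ± 0.720 CPM with DMSO, 11.2 ± 1.55 CPM with MI-3454 (edgeR adjusted p = 8.23e-05) and 11.4 ± 2.096 CPM with the combination (adjusted p = 2.11e-06).

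Among 19 regulators of the ligands, all tested, MI-3454 raised 1, gilteritinib raised 1 and lowered 1, and the combination raised 7 and lowered 4. The 11 of 19 called with the combination were near the background of 57.5%, and the 2 of 19 with gilteritinib near that of 15.1%. The 1 of 19 with MI-3454 stood below the background of 19%, and no test of a share was made. The gene MI-3454 raised was MARCHF1, a ubiquitin ligase that removes CD86 protein from the cell surface. MARCHF1 was 0.482 ± 0.457 CPM with DMSO, 0.578 ± 0.259 with gilteritinib, 9.33 ± 2.44 with MI-3454 (edgeR adjusted p = 5.56e-05) and 14.3 ± 0.641 CPM with the combination (adjusted p = 8.02e-09). CD86 mRNA was also higher in those 2 groups, and the protein was not measured. RELB, an NF-kB subunit, went from 37.7 ± 2.51 CPM with DMSO to 16.95 ± 4.17 CPM with the combination (adjusted p = 9.06e-06), whereas the kinase gene JAK2 went from 45.4 ± 8.11 to 79.1 ± 7.21 CPM (adjusted p = 7.02e-05). IRF1, an activator of CD274, rose with the combination (0.40 ± 0.11 on the log2 scale, adjusted p = 0.00662), where CD274 had no counts. REL, an NF-kB subunit, and CMTM4, which also protects PD-L1 protein, were above the sum of the single changes by 0.57 ± 0.16 and 0.65 ± 0.17 on the log2 scale (edgeR adjusted p of 0.0276 and 0.0187). With gilteritinib alone STAT5A, a signal transducer gene, was higher (0.33 ± 0.10, adjusted p = 0.0459) and NFKB2, an NF-kB subunit gene, lower (-0.42 ± 0.13, adjusted p = 0.0478). CMTM6, which protects PD-L1 protein, was 108 ± 21.9 CPM with DMSO and did not pass in any comparison with DMSO.

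The tested protein-coding genes most like a member, by Pearson correlation of log2 CPM over the 12 libraries, are given for the 4 members with the widest range of group means. All such values share the libraries and their depth and describe only likeness. CD276 was nearest to DNAJC1, an endoplasmic reticulum chaperone gene (r = 0.9951), and CSPG4, a surface proteoglycan gene (r = 0.9941). CSPG4 was 122 ± 28.03 CPM with DMSO, 65.4 ± 6.06 with gilteritinib, 9.43 ± 0.803 with MI-3454 and 1.74 ± 0.425 CPM with the combination. CD80 was nearest to PTGIS, the prostacyclin synthase gene (r = 0.9821), which was 3.01 ± 0.604 CPM with DMSO and had no counts in the treated groups, and to RBM17 (r = 0.9743).

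For ICOSLG, the likeness to GJA3, a gap junction gene, was r = 0.9854, and GJA3 was 1.35 ± 0.165 CPM with DMSO, 0.407 ± 0.0389 CPM with gilteritinib and had no counts in the groups with MI-3454. CD70 was nearest to NTSR1 (r = 0.9806), a neuropeptide receptor gene, and DUSP7 (r = 0.9707), a phosphatase gene of the ERK pathway, which was 282 ± 42.5 CPM with DMSO and 76.0 ± 10.4 CPM with the combination. Among the members themselves the closest pair was ICOSLG and CD70 (r = 0.957), and the most opposed was CD276 and VSIR (r = -0.9), both over the same 12 libraries.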

How the data were processed

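RNA of MOLM-13 cells was measured in 12 libraries, 4 groups of 3, with groups and replicate numbers from the sample titles. The authors deposited 1 file of raw counts for each library, which holds the whole reads assigned to each Ensembl gene. Per the submitters' processing notes, cutadapt 2.1, STAR 2.7.1a, HTSeq 0.11.2, DESeq2 and GRCh38 were used, with no step named for each. Which annotation release they counted on, and whether by strand, is not stated in these sources. The 5 summary entries of each file were kept out of totals and tests; reads outside features, one of them, made up 15.6% to 36.5% of uniquely placed reads.

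Symbols matched 42005 of the 60668 gene identifiers. Coordinates and exon lengths, the latter over the union of a gene's annotated exons, came from GENCODE 29, which matched 58516. Upstream sequences came from RefSeq (GRCh38.p14). In R 4.3.3, edgeR 4.0.16 (limma 3.58.1) kept 13972 of 30849 genes with a count by filterByExpr. Pairs of groups were fitted separately by the quasi-likelihood test after TMM scaling, p was adjusted over all tested genes by Benjamini-Hochberg, and a gene was called under 0.05. The interaction was fitted to all 12 libraries. The scripts were tested on simulated data. Levels are CPM with TMM scaling; intervals from counts, at 95%, and the floor of 3 counts cover counting error only. Genes with near-identical copies or antisense partners are uncertain.

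The text names all 10 members, the nearest protein-coding neighbours, up to 4 called genes of each list per comparison with the largest change and at least 5 CPM, and, for the 4 members of widest range, the 2 genes most correlated, of which 1 is not reported here; other list genes are named with their values, and HAVCR2, SIRPG, CD48, CD58 and the single markers were named after their values were seen. The members and lists were chosen with earlier results of these data known. Same-numbered gilteritinib and DMSO libraries deviated from their group means together (r of 0.142, 0.386 and 0.11 across genes). From this, and not from a label, the number was taken to mark pairs in that comparison only. Unlike numbers in that comparison also deviated together, with r of 0.212 for gilteritinib replicate 1 and DMSO replicate 3. It was 0.097 for gilteritinib replicate 3 and DMSO replicate 1, and -0.301 to -0.174 for the remaining unlike numbers. The pairing, and the calls that rest on it, are thus not established. For MI-3454 and DMSO r was 0.2, -0.315 and -0.393. The value of 0.386 joins the gilteritinib and DMSO libraries highest in RN7SL1. Such libraries also deviated together across unlike numbers, with r of 0.509 for MI-3454 replicate 3 and DMSO replicate 2. Whether r reflects pairs or that trait was not tested. Alternatives were DESeq2 1.42.0, RLE and total-count scaling, no filter, a filter of 1 CPM in 3 libraries, 1 fit of all libraries, the replicate block, each library left out, the 4 libraries highest in RN7SL1 left out and, added after seeing the data, ICOSLG summed with its copy.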

Additional observations from a re-analysis of the deposited data

Results flagged for a closer look

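The interaction term over all 12 libraries, which tests whether the effect of 1 agent differs with the other present, passed in 4 of the 9 tested ligand genes. It passed in 15.3% of all tested genes, and for CD80 it is void. VSIR lay 0.87 ± 0.18 (SE) above the sum of the single log2 changes (edgeR adjusted p = 0.00486) and was higher in 3 of 3 combination libraries than in any other library. ICOSLG lay 0.71 ± 0.18 above the sum (adjusted p = 0.0155), with the combination libraries among those of MI-3454 alone. Its near-identical copy had an interaction of 0.30 ± 0.30, which did not pass (adjusted p = 0.54). With the counts of both summed it was 0.65 ± 0.17 (adjusted p = 0.0175), and the split of reads between them is uncertain. CD276 had a fitted value of -5.02 ± 1.21 (adjusted p = 0.0136) and CD80 one of 8.89 ± 2.32 (adjusted p = 0.0205). Both fitted values rest on groups with 0 to 2 counts in all, depend on the prior count and bound nothing. For CD80 the single agents left 2 and 0 of 181 counts, so no combination value could reach the sum of their changes, and the term shows no differing effect. Without combination replicate 2, which holds both counts of that group, the CD80 term did not pass (adjusted p = 1).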

How the results depend on the processing

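The 63 log2 changes of the 9 tested genes had 990 values under other settings, of which 952 stayed on their side of the threshold, 16 no longer passed, 22 newly passed and 0 reversed. With the replicate number as a block, the number of ligand genes called with gilteritinib against DMSO was 7 in place of 4; it stayed within 1.5 times of the value reported in every other comparison and setting. The block also ended the call on VSIR with MI-3454 (0.49, edgeR adjusted p = 0.139) and made one on LGALS9 with the combination against DMSO (-0.37, adjusted p = 0.00698). The numbers were not taken to mark pairs in those comparisons, and the block changed no other call. Over all genes, gilteritinib against DMSO called 2110, but 4928 with the block, 1243 to 3985 with 1 library left out and 4250 without the 4 libraries highest in RN7SL1. With MI-3454 against DMSO it was 2658, and 1678 with the block. Leaving out 1 library moved the combination against MI-3454 from 4075 to between 2456 and 5074, MI-3454 against gilteritinib from 2430 to between 1588 and 4690, and the interaction from 2136 to between 1305 and 2698. Without the 4 libraries highest in RN7SL1 the latter 2 were 5133 and 3478. Scaling by total counts moved the median of all genes by 0.10 with the combination against DMSO and by 0.12 against gilteritinib, and the share of higher calls from 48.4% to 63.2% in the combination against MI-3454, from 49.9% to 61.5% against gilteritinib and from 42.8% to 58.1% in the interaction. Under it CD70 passed for the interaction (0.62, adjusted p = 0.0296) and CD47 did not pass between the single agents (0.55, adjusted p = 0.0507). The cause of these changes was not tested. CD274, and CD80 in the treated groups, are limited by depth.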
